A study of Oryza sativa Indica Group with 23 samples.

Results

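The comparison described here sets roots of the rice line FL478 grown under salt against roots of the same line grown without it. FL478 is an inbred line that tolerates salt, and its parents are IR29, a sensitive variety, and the landrace Pokkali, which is tolerant. Its arrays were chosen by their labels and make up 6 of the 23 Affymetrix rice arrays of the series, 3 from salt-treated and 3 from control plants, and each array holds 57194 rice probe sets after control and reporter probe sets are left out. The other 17 arrays are roots of IR29, of IR63731, which is a further tolerant line, and of Pokkali, with and without salt; they were used for the estimate of spread and for 1 comparison between genotypes. All plants grew in sand tanks on nutrient solution. In the salt groups NaCl and CaCl2, in a molar ratio of 5 to 1, were added from day 22 in 2 steps over 3 days up to 7.4 dS per m. Roots of both groups were harvested on day 30, so the change recorded is that of plants some days into salt and not of the first hours.

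Roots under salt meet a low water potential and an excess of sodium ions. Known responses in rice roots include the synthesis of osmolytes such as proline, abscisic acid signalling with dehydrins and other protective proteins among its targets, potassium transport through channels and HAK-type carriers, removal of sodium from the xylem sap by the carrier HKT1;5, and remodelling of the cell wall and of the endodermal barrier. Jasmonate signalling, diterpenoid phytoalexins and WRKY factors belong to the defence programme of the same tissue.

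Values are log2 signals made with RMA, a method that summarises the probes of a set into 1 value per array, and a difference of 1 is a change of 2-fold. Differences are salt minus control throughout, with the standard error of the fit. A probe set or gene is said to rise or fall where limma's moderated test gave an adjusted p under 0.05 over all probe sets. Root markers were high: the silicon transporters Lsi1 and Lsi2 and the Casparian strip gene OsCASP1 averaged 11.8 to 11.9 in the 3 salt arrays and 11.9 to 12.0 in the 3 control arrays. RBCS1, a subunit of the photosynthetic enzyme Rubisco, lay between 2.28 and 2.63 on all 6. The 5 photosynthesis genes found by name, RBCS1 among them, averaged higher, at 4.7 to 5.0 on salt arrays and 4.9 to 5.2 on control arrays. The 6 seed genes averaged 4.0 to 4.1 and 4.1 to 4.2, and the 2 anther genes 4.9 to 5.1 and 5.0 to 5.1. The median level of all probe sets was 4.38. Neither the 3 root genes, nor the 5 photosynthesis, 6 seed and 2 anther marker genes found by name, held a member that passed in either direction with all arrays. A change in a whole root may mean fewer cells of a type or less RNA per cell, and these cannot be told apart here.

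The arrays of FL478 are not all alike, and this touches every count below. Each was placed on a scale with the mean of the IR63731 arrays at 0 and a mean of FL478 arrays at 1. That FL478 mean left out salt replicate 2, control replicate 3 and the array being placed. The scale was read from 360 to 381 probe sets that differ by at least 2 log2 units between these means. Salt replicate 2 stood at 0.366 and control replicate 3 at 0.803. The other 4 FL478 arrays stood between 0.915 and 0.984, and as they set the scale, values near 1 follow in part from that choice. Counts and values are therefore given with all 6 arrays and without salt replicate 2 and control replicate 3. Leaving these out leaves numbers 1 and 3 under salt and numbers 1 and 2 in control, and clock genes differed strongly between numbers. The clock gene PCL1 read 7.12, 9.70 and 5.50 in salt replicates 1 to 3, against 4.46, 8.62 and 4.54 in control replicates 1 to 3, so replicate 2 was high in both treatments. CCA1, a clock gene of opposite phase, was lowest in replicate 2 of both treatments, at 9.11 under salt and 10.90 in control. RNA quality, read as the 3 prime minus 5 prime signal of rice control genes, lay between 0.69 and 0.92 on the salt arrays and between 0.80 and 0.86 on the control arrays. FL478 salt and control arrays with the same number deviated together, and fits with the number as a block are given where they change a call.

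With all 6 arrays, 303 probe sets rose under salt (0.530% of those tested) and 246 fell (0.430%). The rises were smaller: their median change was 0.80, against -1.05 for the probe sets that fell, and 83 of the rises against 133 of the falls exceeded 2-fold. In 302 of the probe sets that rose and all 246 that fell, the 3 salt arrays did not overlap the 3 control arrays. Over all rice probe sets, 8.75% had every salt array above every control array and 7.03% had every salt array below. Without the 2 arrays that carry IR63731 signal, 83 probe sets rose (0.145%) and 75 fell (0.131%), and 51 and 61 of these were among those called with all arrays. All 549 probe sets called with 6 arrays kept their direction without the 2, with medians of 0.73 for those that had risen and -1.01 for those that had fallen. For the 302 and 246 whose salt and control arrays do not overlap, that direction was fixed in advance, as the same arrays were used again. With the replicate number as a block, 897 rose (1.57%) and 713 fell (1.25%). With the block and without the 2 arrays, 176 rose (0.308%) and 185 fell (0.323%). Calls passed all 4 fits for 45 probe sets that rose and 61 that fell.

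**Figure D1:**
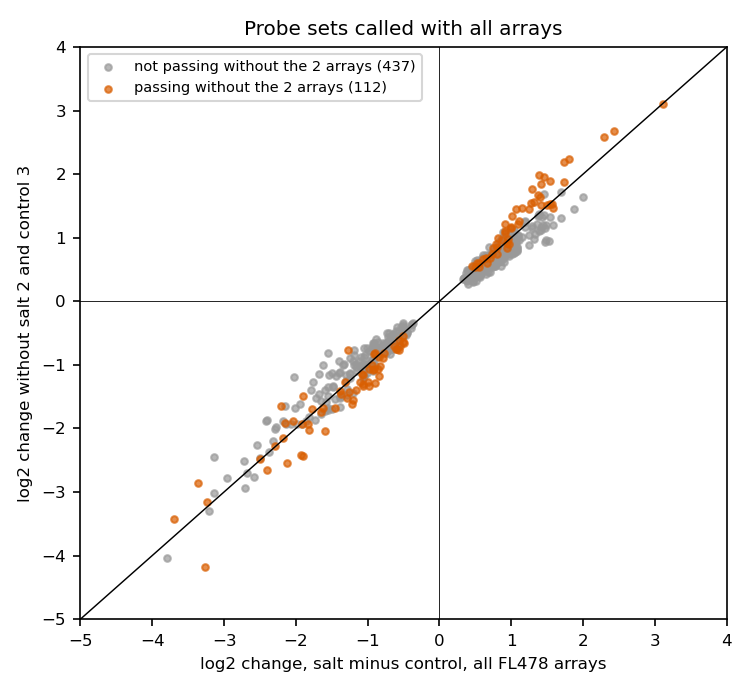
Log2 change, salt minus control, of the 549 probe sets called with all 6 FL478 arrays (x axis), set against the change of the same probe sets without salt replicate 2 and control replicate 3 (y axis), with the line of equality. Each point is 1 probe set, coloured where the smaller fit also calls it, and all 549 lie in the quadrants where both changes have the same sign. Where the salt and control arrays do not overlap, the same sign follows from using the same arrays.

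Probe sets whose level differs between the lines made up a larger share of the calls than of the array. Of all rice probe sets, 2.07% differed by more than 1 log2 unit between the IR63731 control mean and the mean of FL478 control replicates 1 and 2. Among the calls with all arrays the share was 9.84%, 54 of 549, and without the 2 arrays it was 14.6%, 23 of 158. FL478 control replicates 1 and 2 enter both this difference and the salt change, so the larger share is not independent of the calls. Called probe sets also lay at higher levels, with medians of 7.20 for rises and 7.44 for falls, against 4.38 over all probe sets. The part of this difference between lines in the calls was not tested. Where a gene described in full below exceeds 1 unit, the value is stated.

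By gene, using for each of 17905 annotated genes the probe set with the highest mean, 214 genes rose (1.20%) and 142 fell (0.793%) with all arrays. Of these, 38 and 26 carry a gene name, out of 2454 genes with a name. The gene lists below hold only genes with such a name, so they need not cover whole families. The shares of all genes set beside them include genes without a name. Without the 2 arrays, 57 genes rose (0.318%) and 43 fell (0.240%). With the block and all arrays, 634 rose (3.54%) and 416 fell (2.32%), and with the block and without the 2 arrays 125 rose (0.698%) and 109 fell (0.609%). Named genes that passed in all 4 fits numbered 7 among the rises, BGLU16, SS1, RAB21, LPR1, Nrat1, HAK23 and OAT, and 8 among the falls, Pir7b, OsPM19L1, AOS3, BZIP52, HMA5, LOL4, ADK-A and OsPP2C27. Of the genes named below as passing with the block and not without it, SUS4, IAA10 and CAO passed with the block also when the 2 arrays were left out, and the others did not.

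**Figure D2:**
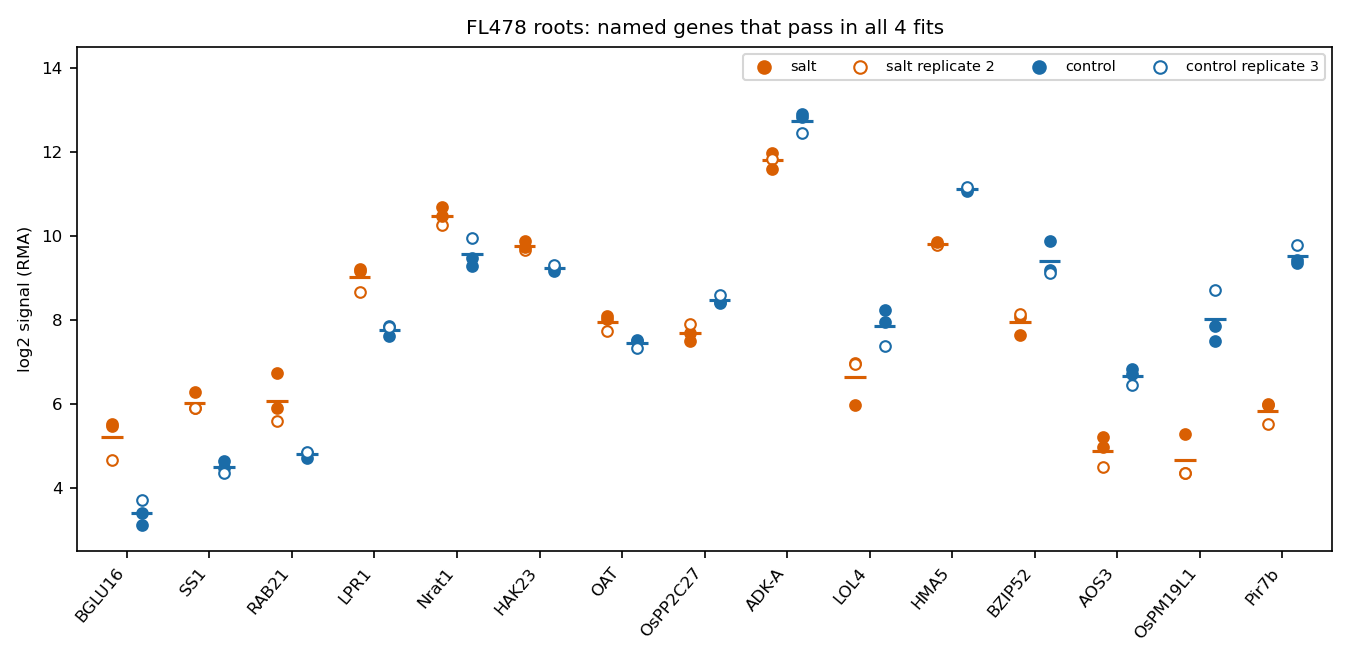
Log2 signal on each FL478 array (y axis) of the 15 named genes that passed in all 4 fits, with salt at the left and control at the right of each gene, a bar at the mean of 3 arrays, and open circles for salt replicate 2 and control replicate 3. Of the 7 genes that rose, all but SS1 have salt replicate 2 as their lowest salt array, and in no gene shown do the salt and control arrays overlap.

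The largest named rise was in BURP10 (LOC4340763), a member of the plant-specific BURP-domain family. It read 7.61, 9.09 and 9.50 in salt replicates 1 to 3, against 5.68, 5.22 and 5.95 in control replicates 1 to 3. The lowest salt array stood well above the highest control array. The change was 3.12 ± 0.49 (SE, n = 3 and 3), 8.69-fold, with an adjusted p of 0.00467, and without the 2 arrays it was 3.10 with an adjusted p of 0.0420. With the block and without the 2 arrays the adjusted p was 0.0542. BURP10 was 2.89 higher in IR63731 control than in FL478 control roots, and it also rose in IR29 by 2.80 (adjusted p = 0.0300).

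BGLU16 (LOC4336389) encodes a family 1 beta-glucosidase, an enzyme class that releases sugars from glucosides of hormones, defence compounds and wall components. Its main probe set read 5.47, 4.65 and 5.53 under salt, against 3.41, 3.10 and 3.72 in control. The control arrays lay below 4.38, the median level of all probe sets, and the salt arrays lay above it. The change was 1.81 ± 0.22, 3.50-fold (adjusted p = 0.000702), and 2.24 without the 2 arrays (adjusted p = 0.00015). A second probe set for the gene read 4.36, 4.30 and 4.28 under salt, against 2.92, 2.68 and 3.10 in control. It rose as well, by 1.42 (adjusted p = 2.1e-05), with all 3 salt arrays close together. Among the 27 beta-glucosidases found by name, 3 rose and none fell with all arrays, beside 1.20% and 0.793% of all genes. The median change was 0.07, against 0.05 over all genes. The other members that rose were BGLU27, by 1.19 ± 0.28 (adjusted p = 0.0476), and BGLU28, by 0.78 ± 0.15 (adjusted p = 0.0214), which are next to each other in the RefSeq assembly ASM3414082v1. Without the 2 arrays BGLU16 passed, and BGLU27 passed only with the block (1.43, adjusted p = 0.0439). With the block BGLU6 passed as well, at 0.86 ± 0.20 (adjusted p = 0.0259), and BGLU30, at 1.47 in both probe sets, did not pass with all arrays (adjusted p = 0.0725 for the main one) and was 2.39 higher in IR63731 control.

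SS1 (LOC9269493), a soluble starch synthase, read 5.90, 5.91 and 6.27 under salt, against 4.47, 4.63 and 4.36 in control. The groups were tight and far apart, and the change was 1.54 ± 0.21 with all arrays (adjusted p = 0.00227) and 1.53 without the 2 (adjusted p = 0.0234). LPR1, listed under the name of the multicopper oxidases that in Arabidopsis act in the root's response to low phosphate, read 9.16, 8.66 and 9.21 under salt, against 7.84, 7.61 and 7.83 in control. Its rise was 1.25 ± 0.24 (adjusted p = 0.0173), and 1.46 without the 2 arrays (adjusted p = 0.0476). SMR1, named after the inhibitors of cyclin-dependent kinases of the SIAMESE family, rose by 1.31 ± 0.27 (adjusted p = 0.0240) and lost the call without the 2 arrays, at 0.98 (adjusted p = 0.272). MADS57, a MADS-box transcription factor, rose by 1.46 ± 0.34 with all arrays (adjusted p = 0.0485), as the only one of 31 MADS-box genes, beside 1.20% of all genes. Its salt replicate 3, at 7.10, lay just below control replicate 1, at 7.13, and without the 2 arrays its change was 0.93 (adjusted p = 0.441).

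The proline synthesis gene P5CS2 (LOC4324853), whose product is an enzyme for the first steps from glutamate, rose. It read 6.53, 7.04 and 6.25 in salt roots, against 4.88, 5.70 and 5.09 in control roots. The rise was 1.38 ± 0.23, 2.61-fold (adjusted p = 0.00736). It was 1.10 and missed the threshold without the 2 arrays (adjusted p = 0.103), and with the block on the same 4 arrays it was 1.27 and passed (adjusted p = 0.0209). Its 3 other probe sets were near the lowest levels of the array and did not pass. P5CS1, its paralog, averaged 10.74 in salt roots and 10.77 in control roots, a difference of -0.03 ± 0.16. OAT, ornithine aminotransferase, which links arginine breakdown to the same pathway, rose by a smaller amount in every fit, 0.49 ± 0.10 with all arrays (adjusted p = 0.0183) and 0.54 without the 2 (adjusted p = 0.0299). Its other probe set passed in none of the 4 fits, at 0.41 with all arrays (adjusted p = 0.429) and 0.28 without the 2 (adjusted p = 0.834).

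TPP2, a trehalose-6-phosphate phosphatase of the pathway to the osmolyte trehalose, fell. It read 7.49, 7.77 and 7.90 under salt, against 9.27, 8.83 and 9.71 in control. It fell by 1.55 on the log2 scale (SE 0.31, adjusted p = 0.0200), and its change without the 2 arrays was -1.35 (adjusted p = 0.179) or, with the block on those arrays, -1.70 (adjusted p = 0.00802). TPP9 of the same family had a change of -0.94 that passed only with the block and all arrays (adjusted p = 0.0150). Of the 13 osmolyte genes, 1 rose and 1 fell with all arrays, beside 1.20% and 0.793% of all genes, and none passed without the 2. In 10 of 13 the change was below 0, against 7404 of all 17905 genes, a lean that was not tested. The median was -0.18 against 0.05 over all genes.

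The dehydrin RAB21 (LOC4350454), also known as RAB16A and used as a marker of abscisic acid and drought responses, rose. It read 5.91, 5.58 and 6.74 under salt, against 4.82, 4.72 and 4.85 in control, a change of 1.28 ± 0.24 (adjusted p = 0.0147). The change was 1.55 without the 2 arrays (adjusted p = 0.0231), and a second probe set, at 4.67, 3.84 and 4.54 under salt against 3.60, 3.41 and 3.29 in control, rose too, by 0.92 (adjusted p = 0.0123). OsPM19L1 (LOC4338635), a plasma membrane protein of the AWPM-19 family linked to abscisic acid responses, did the opposite. It read 4.35, 4.35 and 5.27 under salt, against 7.86, 7.49 and 8.72 in control, and it fell by 3.37 (SE 0.43, 10.3-fold, adjusted p = 0.00119). Its change without the 2 arrays was -2.87 (adjusted p = 0.0238). OsPM19L1 was 1.53 lower in IR63731 control than in FL478 control roots, and its second probe set was among the lowest levels of the array, at 2.72 in salt and 2.73 in control. OsPM19L1 is neither a dehydrin nor a LEA protein and was placed by hand in the list of these proteins. Of the 8 genes in that list, 1 rose and 1, OsPM19L1, fell with all arrays, beside 1.20% and 0.793% of all genes. The remaining 6 did not pass in any of the 4 fits. Among them DHN1, at 11.13 in salt and 11.22 in control, changed by -0.09 ± 0.28, and LEA19, the gene also known as LEA3, at 4.97 in salt and 5.03 in control, by -0.06 ± 0.18.

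In the wider abscisic acid list of 71 genes, which includes the type 2C phosphatases, 1 rose and 1 fell with all arrays. These counts stand beside 1.20% and 0.793% of all genes, and the median change was 0.02. SAPK7, a SnRK2-type kinase of the family that relays the abscisic acid signal, read 8.63, 9.27 and 8.64 under salt, against 8.01, 8.35 and 8.08 in control. Its rise of 0.70 ± 0.13 (adjusted p = 0.0166) lost the call without the 2 arrays, at 0.46 (adjusted p = 0.142). OsPP2C27, a type 2C phosphatase, fell in every fit, by 0.77 with all arrays (SE 0.14, adjusted p = 0.0109). With the block, OsPP2C33 passed among the rises, at 0.51, and OsPP2C71 among the falls, at -0.58. SalT, a mannose-binding lectin named for its induction by salt, fell in FL478 at this time. It read 9.91, 9.56 and 10.06 under salt, against 11.26, 10.47 and 10.95 in control, a change of -1.05 ± 0.23 (adjusted p = 0.0375), and its call was lost without the 2 arrays, at -0.88 (adjusted p = 0.295). Its other probe set, at -1.19, did not pass with all arrays (adjusted p = 0.0635) and passed with the block (adjusted p = 0.037).

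Of 28 sodium and potassium transport genes, 1 rose and 1 fell with all arrays, beside 1.20% and 0.793% of all genes, and the median change was -0.13. HAK23, a potassium carrier of the HAK family, read 9.88, 9.66 and 9.73 under salt, against 9.17, 9.23 and 9.30 in control. The rise was small and tight, 0.53 ± 0.09 (adjusted p = 0.0109), and 0.61 without the 2 arrays (adjusted p = 0.0358). TPK2, a tandem-pore potassium channel, fell by 0.39 (SE 0.09, adjusted p = 0.0492) with all arrays and not without the 2, at -0.38 (adjusted p = 0.248). With the block, HAK25 passed among the rises, at 0.55, and AKT1 and HAK5 among the falls.

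AKT1, the main inward potassium channel of roots, read 11.57, 11.09 and 11.16 under salt, against 12.20, 11.76 and 12.03 in control. Its change of -0.72 ± 0.24 missed the threshold with all arrays (adjusted p = 0.177) and passed with the block (adjusted p = 0.0327), but not with the block and without the 2 arrays (adjusted p = 0.152).

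HKT1;5 (LOC4327757), the sodium carrier that is the candidate gene of the Saltol region, read 7.62, 6.93 and 7.25 under salt. The control arrays read 4.88, 5.06 and 7.76. Control replicate 3, at 0.803 on the scale between the lines, thus stood above every salt array, while control replicates 1 and 2 stood below the lowest of them. Its reading was also above the IR63731 control mean of 6.69, and the source of this high value was not tested. The change was 1.37 ± 0.68 with all arrays (adjusted p = 0.419) and 2.46 ± 0.67, 5.50-fold, without salt replicate 2 and control replicate 3 (adjusted p = 0.174), and neither passed. For this gene IR63731 roots averaged 8.43 under salt and 6.69 in control, the control mean being 1.72 above that of FL478 control replicates 1 and 2. Of the 12 genes taken from earlier work on salt, 9 were found by name, and the others were not analysed here. Besides those described, NAC6, a stress-related transcription factor, changed by -0.54 ± 0.24 (adjusted p = 0.347).

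Among 26 transporters of zinc, copper and manganese, none rose and 3 fell with all arrays, beside 0.793% of all genes that fell. With the block 5 fell, beside 2.32% of all genes, and without the 2 arrays 1 fell. HMA5 (LOC4336625), a copper pump that loads the xylem, read 9.80, 9.78 and 9.84 under salt, against 11.12, 11.07 and 11.17 in control. The arrays of each group were close together, with an SD of 0.03 in salt and 0.05 in control. The change was -1.31 ± 0.14 (adjusted p = 0.000212), and -1.27 without the 2 arrays (adjusted p = 0.00710). HMA4, a copper pump of the vacuole, read 9.67, 9.75 and 9.46 under salt, against 10.36, 10.12 and 10.39 in control, and fell by 0.66 (SE 0.13, adjusted p = 0.0171). MTP7, of the cation diffusion family, fell by 0.91 (SE 0.21, adjusted p = 0.0492). HMA4 and MTP7 lost their calls without the 2 arrays (adjusted p = 0.0979 and 0.316), where their changes were -0.67 and -0.66. The metal carriers Nramp1, at -1.65, and ZIP3, at -0.57, passed with the block and all arrays only.

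Of 27 genes for iron uptake, chelation and storage, 1 fell with all arrays, beside 0.793% of all genes. A change below 0 was seen in 21 of the 27, against 7404 of all 17905 genes, a lean that was not tested, and the median was -0.23. This was IRO3, a bHLH factor of the iron deficiency response, at 9.46, 9.42 and 9.83 under salt, against 10.49, 10.54 and 10.94 in control. Its change of -1.09 ± 0.26 (adjusted p = 0.0490) was -0.87 without the 2 arrays (adjusted p = 0.358). VIT1.2, a vacuolar iron transporter, passed with the block and all arrays at -1.13 (adjusted p = 0.0469). In the opposite direction, Nrat1 (LOC4328200), a transporter of the Nramp family that carries aluminium, read 10.68, 10.26 and 10.48 under salt, against 9.27, 9.47 and 9.95 in control. It rose by 0.91 ± 0.18 (adjusted p = 0.0178), and by 1.21 without the 2 arrays (adjusted p = 0.0126).

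The largest named fall was in Pir7b (LOC4326788), an esterase first known as a gene that rice leaves induce against bacteria. It read 6.0, 5.52 and 5.96 under salt, against 9.37, 9.44 and 9.78 in control. No salt array came within 3 units of a control array, and the change was -3.70 ± 0.43, 13.0-fold (adjusted p = 0.00056). It was -3.42 without the 2 arrays (adjusted p = 0.0144). IR63731 control roots were 2.28 lower than FL478 control roots for this gene, which places the FL478 salt roots, with a mean of 5.83, below the IR63731 control mean of 7.12.

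A jasmonate gene fell as well. AOS3 (LOC4328742), an allene oxide synthase at the branch point to jasmonate, read 5.20, 4.50 and 4.96 under salt, against 6.83, 6.71 and 6.45 in control. It fell by 1.78 (SE 0.22, adjusted p = 0.0011), with a change of -1.69 without the 2 arrays (adjusted p = 0.0126), and it was 1.59 lower in IR63731 control. Of the 39 jasmonate genes, none rose and 1 fell with all arrays, beside 1.20% and 0.793% of all genes. A change below 0 was seen in 29, against 7404 of all 17905 genes, a lean that was not tested, and the median was -0.47. With the block AOS4, which lies next to AOS3 in the RefSeq assembly, and OPR5, of the oxophytodienoate reductase family, passed as well with all arrays, at -1.07 and -1.40. Neither passed without the 2 arrays, where AOS4 stood at -0.35 (adjusted p = 0.908) and, with the block, at -0.80 (adjusted p = 0.324), and OPR5 with the block had an adjusted p of 0.131. OPR5 was 1.01 lower in IR63731 control. Of 15 diterpenoid phytoalexin genes none passed in any of the 4 fits, although the median was -0.70. CYP99A2, a momilactone pathway enzyme, read 5.72, 5.08 and 6.64 under salt, against 10.33, 8.69 and 8.38 in control, with a change of -3.32 ± 0.88 (adjusted p = 0.0787). The spread of its control arrays was wide, and the gene was 3.56 lower in IR63731 control.

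Of 6 WRKY factors found by name, 5 had a change below 0, against 7404 of all 17905 genes, a lean that was not tested. None of the 6 passed with all arrays, and their median was -1.07. WRKY76 and WRKY62, neighbours in the RefSeq assembly, passed with the block, at -1.86 (adjusted p = 0.0206) and -1.47 (adjusted p = 0.0295), and did not pass with the block and without the 2 arrays. Among 8 NAC factors found by name the median was -0.47, and NAC45 passed with the block only (-1.14, adjusted p = 0.0466). LOL4, a zinc finger protein related to the cell death regulator LSD1 of Arabidopsis, fell in all 4 fits, by 1.22 with all arrays (SE 0.28, adjusted p = 0.0430) and by 1.62 without the 2 (adjusted p = 0.0381). ILL3 (LOC4334707), of the family that frees auxin from its amino acid conjugates, read 7.67, 6.83 and 6.80 under salt, against 8.37, 9.25 and 8.65 in control. It fell by 1.66 (SE 0.28, adjusted p = 0.00865), narrowly lost the call without the 2 arrays (adjusted p = 0.0846), and was 4.21 lower in IR63731 control.

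**Figure D3:**
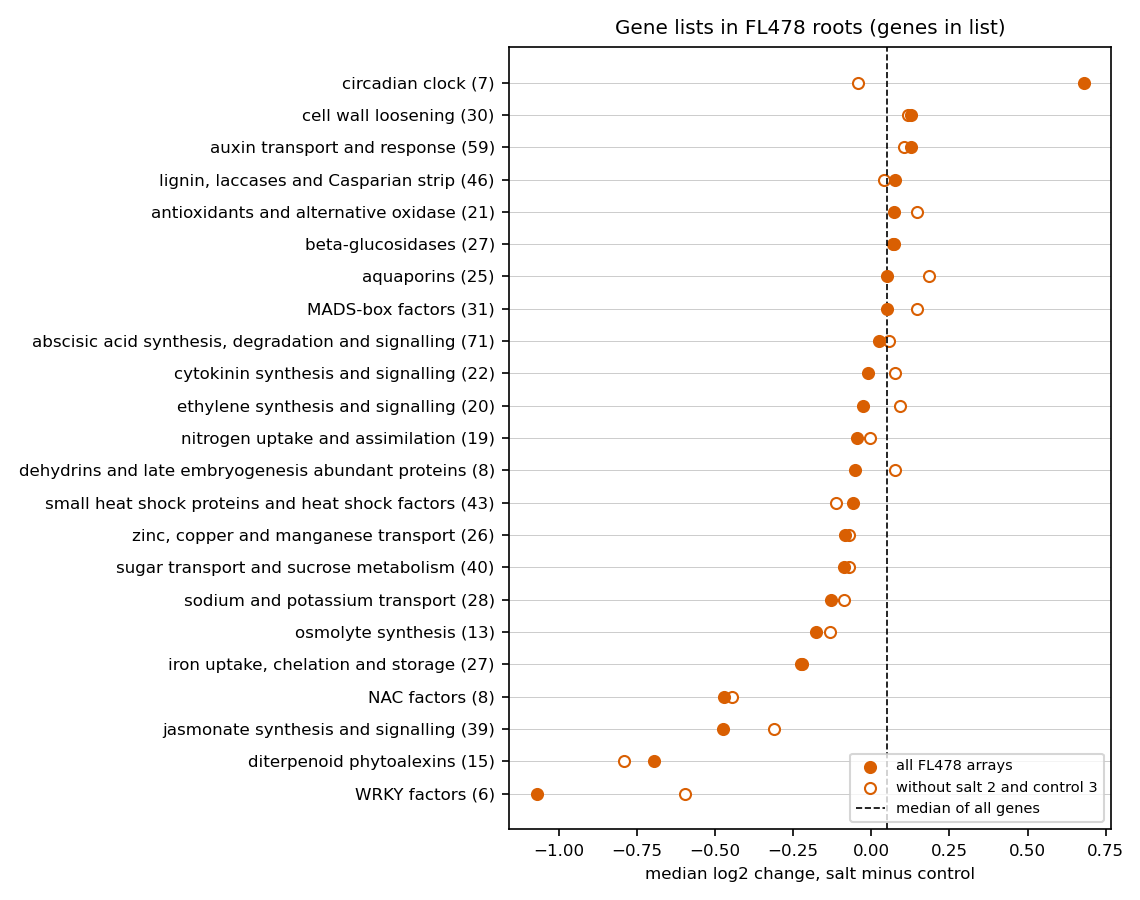
Median log2 change, salt minus control, of each gene list (x axis) with all 6 FL478 arrays (filled) and without salt replicate 2 and control replicate 3 (open); the number of genes is in brackets and the dashed line is the median of all 17905 genes. The WRKY, diterpenoid, jasmonate and NAC lists lie lowest, and the clock list is the one whose median moves most, 0.68 with all arrays and -0.04 without the 2.

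Of 30 expansins and related wall-loosening genes, 3 rose and none fell with all arrays, beside 1.20% and 0.793% of all genes, and the median was 0.13. EXP31, an alpha-expansin, read 8.43, 8.89 and 9.88 under salt, against 7.13, 7.72 and 7.27 in control, a rise of 1.69 ± 0.40 (adjusted p = 0.0478). EXPB18, a beta-expansin, rose by 0.86 ± 0.20 (adjusted p = 0.0485), and EXP10 by 0.61 ± 0.13 (adjusted p = 0.0357). None of the 3 passed without the 2 arrays, where their changes were 1.73, 0.98 and 0.62. With the block and all arrays 3 rose and 1 fell, beside 3.54% and 2.32% of all genes, the fall being EXPB3, at -0.56.

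Genes for lignin and the endodermal barrier split. Of 46, 2 rose and 1 fell with all arrays, beside 1.20% and 0.793% of all genes, and the median was 0.08. OsCASPL2D1, of the family of Casparian strip membrane proteins, read 10.25, 10.15 and 10.10 under salt, against 9.15, 9.40 and 8.95 in control. Its rise was 1.00 ± 0.16 (adjusted p = 0.00467), and 0.90 without the 2 arrays (adjusted p = 0.0638), where the block brought it back past the threshold (adjusted p = 0.0220). OsCASPL1E1 of the same family rose by 0.94 ± 0.22 (adjusted p = 0.0464). LAC24, a laccase of the group that polymerises lignin, fell: it read 4.45, 4.92 and 4.95 under salt, against 7.83, 6.50 and 7.51 in control, a change of -2.50 ± 0.55 (adjusted p = 0.0361). LAC24 was 1.11 lower in IR63731 control. In the fit without the 2 arrays OsCASPL1E1 and LAC24 did not pass (adjusted p = 0.225 and 0.203). With the block CAD6, a cinnamyl alcohol dehydrogenase, passed among the falls at -1.31, as did OsCASPL1C1 at -1.05, and BLE3 of the Casparian strip protein family passed among the rises at 0.88.

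Heat shock genes changed singly. Of 43 small heat shock proteins, chaperones and heat shock factors, 2 rose and 1 fell with all arrays, beside 1.20% and 0.793% of all genes. Their median was -0.06. HSP17.4 (LOC4332360), a small chaperone, read 6.59, 6.34 and 6.74 under salt, against 8.66, 9.71 and 9.48 in control. The change was -2.73 ± 0.50 (adjusted p = 0.0126), and -2.52 without the 2 arrays (adjusted p = 0.134), where the block gave -2.60 and a call (adjusted p = 0.0432). For this gene IR63731 control roots were 3.44 lower than FL478 control roots. HSP101, the disaggregating chaperone also listed as CLPB1, read 6.62, 6.61 and 6.59 under salt, against 5.63, 5.94 and 5.57 in control. It rose by 0.90 ± 0.14 (adjusted p = 0.0038) and missed the threshold without the 2 arrays, at 0.82 (adjusted p = 0.0562), but passed on the same arrays with the block (adjusted p = 0.0225). HSF12, a heat shock factor, rose by 1.01 ± 0.23 with all arrays (adjusted p = 0.0371) and did not pass without the 2 (adjusted p = 0.201). Its other probe set passed in none of the 4 fits, at 0.24 with all arrays (adjusted p = 0.428).

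In redox metabolism, AOX1a, the alternative oxidase of mitochondria, read 6.31, 5.11 and 6.31 under salt, against 7.95, 7.04 and 8.82 in control. It fell by 2.03 (SE 0.46, adjusted p = 0.0432) with all arrays, and its change without the 2 was -1.19 (adjusted p = 0.432). Replicate 2 was the lowest array of its treatment in both groups, and with the block the adjusted p was 0.00146 with all arrays and 0.0486 without the 2. PRXIIC, a peroxiredoxin, rose by 0.49 ± 0.11 (adjusted p = 0.0433), and these 2 were the calls among 21 antioxidant and alternative oxidase genes. That is 1 rise and 1 fall, beside 1.20% and 0.793% of all genes. PRXIIC lost its call without the 2 arrays (adjusted p = 0.0589), also with the block (adjusted p = 0.0648). Its other probe sets, at 0.56 and -0.03, did not pass with all arrays (adjusted p = 0.0546 and 0.957). The first of them passed with the block and all arrays (adjusted p = 0.0131). With the block the ascorbate peroxidase APX1 passed as well, at 0.43 (adjusted p = 0.0240). CAO, listed under the names of chlorophyllide a oxygenase and Lls1 and chosen after its values were seen, showed the same dependence on number. It read 4.85, 3.46 and 6.18 under salt, against 8.37, 6.91 and 8.78 in control, so replicate 2 was the lowest and replicate 3 the highest in each treatment, and each salt array was far below the control array of its number. With all arrays its change of -3.19 ± 0.89 did not pass (adjusted p = 0.0966), and with the block its error was 0.32 and it passed (adjusted p = 0.00014). Leaving out the 2 arrays gave -2.12 (adjusted p = 0.570), and -3.29 with the block (adjusted p = 0.00276).

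Auxin genes numbered 59, of which 1 rose with all arrays, beside 1.20% of all genes. It was the response factor ARF14, by 0.60 ± 0.13 (adjusted p = 0.0321), and the median was 0.13. The response factor ARF15, at 0.70, and the repressor IAA21, at 0.66, passed instead without the 2 arrays, beside 0.318% of all genes. With the block on those arrays IAA21 did not pass (adjusted p = 0.0512). With the block and all arrays 4 rose and 2 fell, beside 3.54% and 2.32% of all genes, the falls being the carriers PIN5A and PIN5C. Of 25 aquaporins, 20 ethylene genes, 22 cytokinin genes, 40 genes of sugar transport and sucrose metabolism, 19 of nitrogen uptake and assimilation and 7 clock genes, none passed with all arrays, and none of the 22 cytokinin genes passed in any of the 4 fits. With the block Lsi6, a silicon channel of the aquaporin family, passed at 0.63, ACO1, an ethylene-forming oxidase, at 0.91, the sucrose synthases SUS4 and SUS6 at 0.89 and 0.36, and the ammonium transporters AMT2-3 and AMT2-1 among the falls, at -1.22 and -0.79. The hexokinase HXK6 at -0.56, GDH1, glutamate dehydrogenase, at -0.55, CCA1 at -1.18 and MADS56 at -0.67 were further falls that needed the block. SUS4 passed also with the block and without the 2 arrays, at 0.91 (adjusted p = 0.0411), and was 1.20 higher in IR63731 control. IAA10, an auxin response repressor, passed in both blocked fits, at 0.97 and 1.20.

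Among regulators and housekeeping enzymes, BZIP52 (LOC4341753), a bZIP factor also known as RISBZ5, read 8.06, 8.14 and 7.65 under salt, against 9.89, 9.18 and 9.13 in control. It fell by 1.45 (SE 0.21, adjusted p = 0.00332), and its change was -1.68 without the 2 arrays (adjusted p = 0.0126). ADK-A, adenylate kinase A, an abundant enzyme of nucleotide balance, read 11.97, 11.83 and 11.60 under salt, against 12.84, 12.90 and 12.44 in control. It fell by 0.93 (SE 0.14, adjusted p = 0.00362), and its change was -1.08 without the 2 arrays (adjusted p = 0.00899). These were also among the genes that passed in other genotypes: BZIP52 fell in IR29 and Pokkali (adjusted p = 0.0172 and 0.0392), and ADK-A in IR29, IR63731 and Pokkali (adjusted p = 0.0145, 0.0303 and 0.0468). OsCASPL2D1 rose in IR29, IR63731 and Pokkali too (adjusted p = 0.016, 0.0497 and 0.0261). SMR1 rose in IR29 and IR63731 (adjusted p = 0.0106 and 0.0453), and EXPB18 in IR29 (adjusted p = 0.0071). HMA5 also fell in IR29, and TPK2 in IR63731. In Pokkali, Nrat1 and HAK23 also rose, and LOL4, ILL3 and OsPP2C27 also fell.

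PEX11-1 (LOC4331408), of a family that divides peroxisomes, was the largest named rise that passed without the 2 arrays and not with all 6. It read 6.83, 4.59 and 6.95 under salt, against 5.36, 4.63 and 5.36 in control. Salt replicate 2 stood at the level of the lowest control array. The change was 1.01 ± 0.39 with all arrays (adjusted p = 0.250) and 1.89 ± 0.18 without the 2 (adjusted p = 0.00015). IR63731 roots averaged 3.94 under salt and 3.93 in control for this gene, and the IR63731 control mean was 1.07 below that of FL478 control replicates 1 and 2.

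Genes without a name held changes as large as the named ones. The largest fall by gene was LOC4351985, which read 4.49, 6.62 and 7.16 under salt, against 9.92, 9.81 and 9.93 in control. Its change was -3.79 ± 0.77 (adjusted p = 0.0246), with a spread of 1.41 (SD) among salt arrays and 0.07 among control arrays, and it did not pass without the 2 arrays (adjusted p = 0.115). LOC4345477 read 4.37, 4.19 and 6.07 under salt, against 8.24, 7.11 and 8.69 in control, a change of -3.14 ± 0.56 (adjusted p = 0.0109). The largest rises of this kind were LOC107276285, by 2.00 ± 0.40 (adjusted p = 0.0231), and LOC4341247, by 1.69 ± 0.30 (adjusted p = 0.0112). None of these 4 genes passed without the 2 arrays, and all 4 passed with the block and without the 2. The IR63731 control mean differed from that of FL478 control replicates 1 and 2 by -1.54 for LOC4351985, -2.57 for LOC4345477 and 1.75 for LOC107276285. In the array annotation 67 of the probe sets that rose and 92 of those that fell had no gene or several.

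The salt change of FL478 was then set against the mean change of IR29, IR63731 and Pokkali. Of 57194 probe sets, 3 passed in this difference (0.00525%) with all arrays, and none of the 10 named genes with the largest differences was among them by its main probe set. The first was the single probe set of LOC4335593, for which the files give no name. It read 2.90, 3.09 and 3.38 in FL478 salt roots, against 5.97, 5.62 and 4.97 in FL478 control roots. All 17 arrays of the other genotypes lay between 2.96 and 3.80 in both treatments, so the FL478 control arrays were the ones that stood apart. The difference was -2.28 ± 0.23 (adjusted p = 0.000403). The IR63731 control mean minus that of FL478 control replicates 1 and 2 was -2.70 for this probe set. The second was the further probe set of BGLU16, where the FL478 salt arrays were above all 17 others. Its change of 1.42 in FL478 compares with 0.80 in IR29, 0.27 in IR63731 and 0.12 in Pokkali, a difference of 1.02 ± 0.15 (adjusted p = 0.0360). The main probe set of BGLU16 had a difference of 1.27 ± 0.25 that did not pass with all arrays (adjusted p = 0.322) and passed without the 2 (adjusted p = 0.0136). The third was a probe set with no gene listed, at 3.99, 4.56 and 4.56 in FL478 salt roots, against 6.23, 6.61 and 6.80 in FL478 control roots. The other genotypes lay between 4.22 and 5.37 there, and the difference was -1.68 ± 0.20 (adjusted p = 0.00346). IR63731 control minus FL478 control was -1.69 there.

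**Figure D4:**
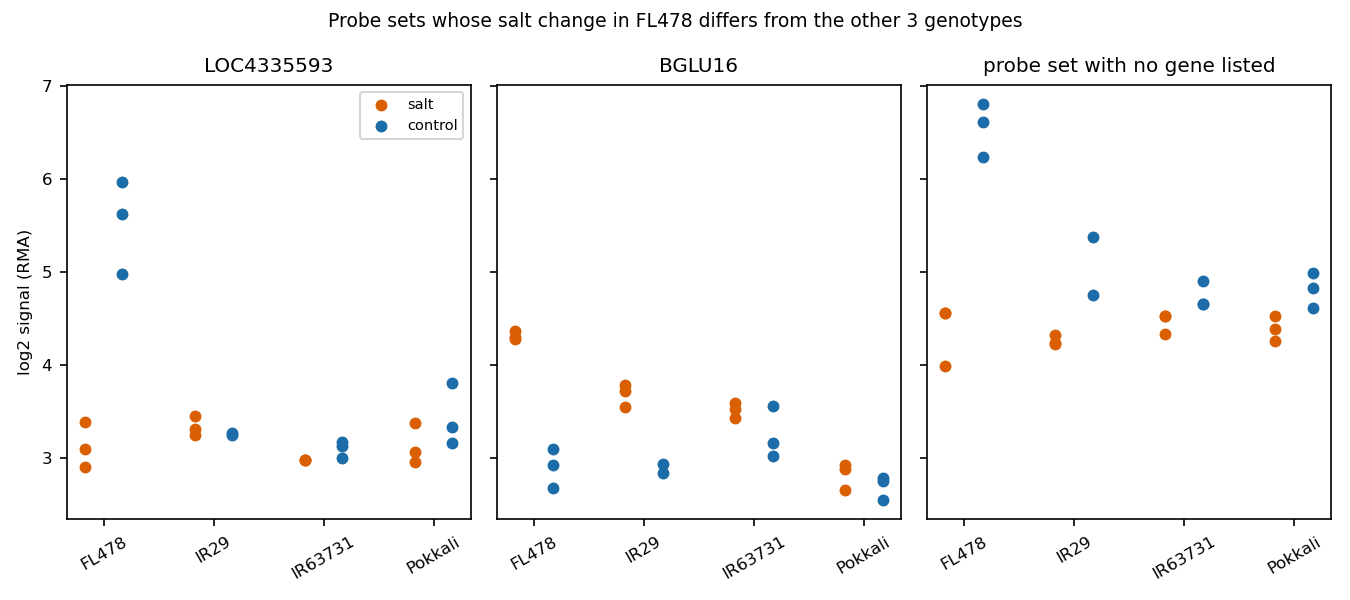
Log2 signal (y axis) of the 3 probe sets whose salt change in FL478 differed from the mean of the other genotypes, by genotype, with each array a point, salt at the left and control at the right. For LOC4335593 and the probe set with no gene listed the FL478 control arrays stand above all other arrays, and for BGLU16 the FL478 salt arrays do.

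Without the 2 arrays, 7 probe sets passed in the difference (0.0122%): these 3, the main probe set of BGLU16, PEX11-1, LOC4350295 and another with no gene listed. PEX11-1 differed by 1.66 ± 0.21 (adjusted p = 0.00991), with all 17 arrays of the other genotypes between 3.70 and 4.35. LOC4350295 read 7.79, 6.59 and 7.41 in FL478 salt roots, against 6.06, 6.03 and 5.77 in FL478 control roots and 3.58 to 4.44 in the other genotypes, and its IR63731 control minus FL478 control difference was -1.93. With the block as well, 7 passed (0.0122%), the further probe set of BGLU16 being replaced by another with no gene listed.

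For most of the large changes the difference from the other genotypes did not pass, in a test with 3 arrays in most groups. The 10 largest named rises of FL478 were above 0 in all 3 other genotypes, with median changes of 0.91 in IR29, 0.94 in IR63731 and 0.72 in Pokkali, beside 1.42 in FL478. The 10 largest named falls were below 0 in 10 of 10 genes in IR29 and Pokkali and in 8 of 10 in IR63731, with medians of -0.79 in IR29, -0.60 in IR63731 and -1.23 in Pokkali, beside -1.90 in FL478. These genes were chosen for their size in FL478, so a larger median there follows from the choice. LAC24 and HSP17.4 were the exceptions in sign, at 0.23 and 0.20 in IR63731. By size of difference among named genes, CYP701A8 at -3.40 ± 1.15, CYP99A2 at -3.38 ± 1.03, CPS2 at -2.91 ± 1.32, PBZ1 at -2.78 ± 1.41 and Pir7b at -2.77 ± 0.50 were lowest. BGLU16, PIP2-5 at 1.20 ± 0.67, BURP10 at 1.14 ± 0.57, BGLU30 at 1.11 ± 0.45 and PIK6-NP at 1.07 ± 0.69 were highest. IR63731 control minus FL478 control was -2.79 for CYP701A8, -3.56 for CYP99A2, -3.34 for CPS2, -2.26 for PBZ1 and -2.28 for Pir7b. It was 0.69 for BGLU16, 0.29 for PIP2-5, 2.89 for BURP10, 2.39 for BGLU30 and 2.94 for PIK6-NP. None of these 10 passed with all arrays, and the resistance gene homolog PIK6-NP rested on salt replicate 2, which read 6.34 where the other salt arrays read 2.97 and 3.16 and IR63731 averaged 6.28 under salt.

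**Figure D5:**
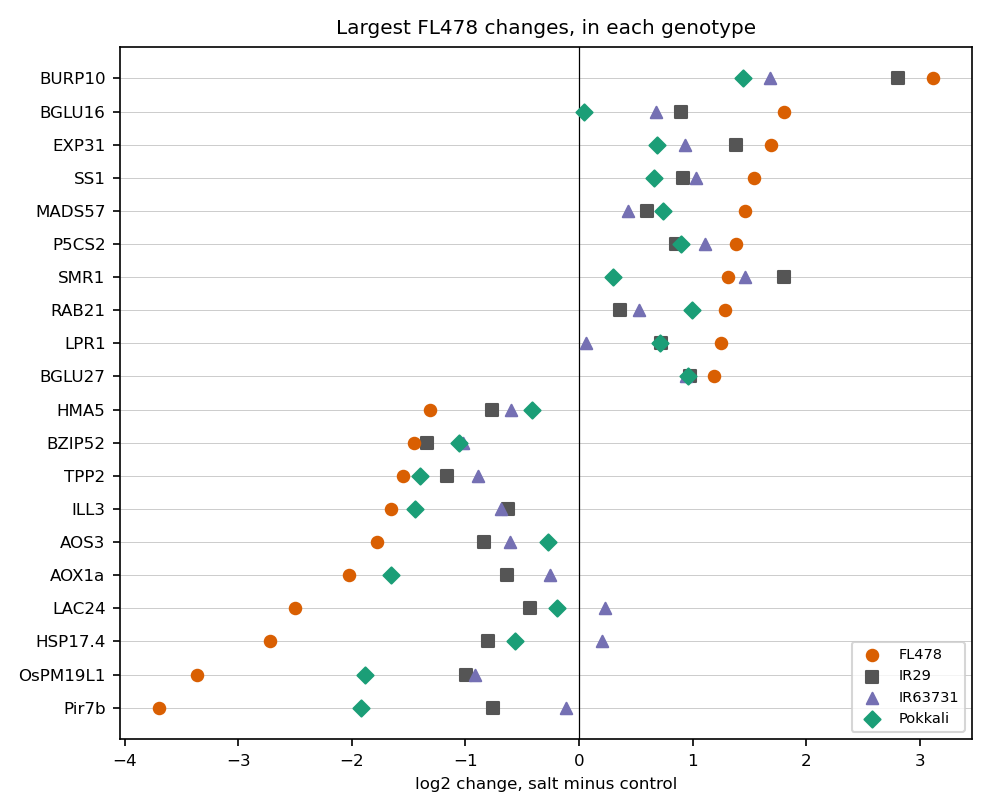
Log2 change, salt minus control (x axis), in each of the 4 genotypes for the 10 largest named rises and the 10 largest named falls of FL478 with all arrays; each point is the fitted change of 1 genotype. Most points of a gene lie on the same side of 0, and those of FL478 lie outermost for all but SMR1.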

How the data were processed

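Root RNA was hybridised to Affymetrix rice arrays, and the authors deposited log2 values. The submitters' processing notes name RMA. Neither software nor genome build is given in the sources used here. Of 57381 probe sets, 123 AFFX and 64 reporter sets were left out. Genes come from the array annotation and RefSeq: 22436 probe sets had 1 gene. No detection calls come with the values, and precision is limited by the number of arrays.

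The 8 group means of all 23 arrays were fitted with limma 3.58.1 (R 4.3.3), with two-sided tests whose p-values were adjusted by Benjamini and Hochberg's method over all 57194 rice probe sets. Named genes are the 10 largest passing changes each way with all arrays, the 6 largest without the 2 arrays, passing list members, genes known from salt work, and the 5 largest differences each way from the other genotypes. The members, the 23 gene lists and the tests were chosen with earlier results of these data known, and the block without the 2 arrays was added after seeing the data. Deviations of same-numbered FL478 salt and control arrays correlated at 0.421, 0.197 and 0.287, each over 0.1, so numbers were taken to pair arrays. The labels call them biological replicates and leave the meaning of a number unstated. The block fits 1 effect per number, shared by all 23 arrays. Whether numbers pair arrays within or between the other genotypes was not checked. The FL478 test was tried on simulated data holding 200 changed probe sets: it found 34 of 67 that changed 1.5-fold, 54 of 67 that changed 2-fold and 62 of 66 that changed 4-fold, and called 8 that did not change. The simulated noise was independent between arrays, with no effect of replicate number and no array carrying IR63731 signal. These rates therefore need not hold for the real arrays. A planned search of promoters was not run. Plots were made with Python 3.11.15 and matplotlib 3.10.9.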

Additional observations from a re-analysis of the deposited data

Results flagged for a closer look

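The salt change in FL478 differed from the mean change of the other 3 genotypes by limma's test of that difference for 3 probe sets. For LOC4335593 the difference was -2.28, with FL478 control roots far above every other group. The further probe set of BGLU16 had a difference of 1.02, with FL478 salt roots above every array of the other genotypes. A probe set with no gene listed had a difference of -1.68, again with FL478 control roots highest. Groups of 3 arrays were too small to test single arrays as outliers.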

How the results depend on the processing

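Counts of probe sets with all arrays were 303 higher and 246 lower, and 3 in the difference from the other genotypes. In that order they were 897, 713 and 3 with the replicate block, 83, 75 and 7 without salt replicate 2 and control replicate 3, 176, 185 and 7 with both, and 75, 78 and 6 when IR29 control replicate 1 was left out as well. A fit of the 6 FL478 arrays alone called 16 higher and 42 lower, and probe sets above the median mean gave 500, 362 and 1. The difference counted 5 with eBayes trend and robust settings. It counted 0 (limma) without probe sets that differ between FL478 and IR63731 by over 1 unit, which leaves out 2 of the 3 by construction, with 2974 of 56009 at an unadjusted p under 0.05, and it counted 2 with quantile normalization repeated or with array weights. Leaving out each FL478 array in turn gave 53 to 371 higher, 88 to 274 lower and 2 to 9 in the difference; the lowest counts of higher and of lower came without control replicate 1. Other settings kept each count within 1.5 times. Of the 45 genes of the report that passed with all arrays, all kept their direction under every alternative that tested them, 45 passed with the block, 26 with the block and without the 2 arrays, 16 without the 2, and 7 with the 6 arrays alone. These alternatives use the same arrays again, so a kept direction is not independent evidence. The block ended no call made with all arrays. Fewer arrays widen the error by construction; what else moves these counts was not tested.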
